A study of Mus musculus with 28 samples.

Results

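The genes described here are 10 serotonin receptor genes: Htr1a, Htr1b, Htr1d, Htr1f, Htr2a, Htr2c, Htr4, Htr5a, Htr6 and Htr7. They were chosen by name out of 29878 genes in the count files, with earlier results of these data known, and each symbol matched an Ensembl identifier. Htr2b, Htr3a, Htr3b and Htr5b are not among them. These held 20 to 222 reads over all libraries, against 314 to 5852 for the 10, so passing the filter below is no result about the family. All 10 passed a filter of more than 1 CPM (a read count scaled to library size) in at least 2 of the 28 libraries, which left 14979 genes to test.

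The study sequenced RNA from brains of Hdc knockout (Hdc-KO), heterozygous and wild-type (WT) mice of 2 to 3 months on a C57Bl/6 background. Hdc encodes histidine decarboxylase, the enzyme that makes histamine, and the constitutive knockout serves as a model of tic disorders because an inactivating HDC mutation was found in a family with Tourette syndrome. The 28 libraries came from dorsal striatum (2 WT, 3 heterozygous and 2 Hdc-KO), ventral striatum (3, 3 and 2), hypothalamus (3, 3 and 2) and motor cortex (1, 2 and 2). No treatment was given in the labels, and all libraries were made from dissected bulk tissue. A number from 1 to 8 in the library names is used here as the replicate number; what it stands for was not given, and if it marks an animal then the regions share animals and the p-values between regions treat them as independent. Motor cortex has 1 WT library, so WT values there have no replicate check.

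Serotonin (5-HT) is released in the forebrain by axons of raphe neurons, whose cell bodies lie in the brainstem, so forebrain tissue holds receptor transcripts but few transcripts of serotonin neurons. All but the Htr3 family of its receptors are G protein-coupled. The Htr1 and Htr5 receptors couple to Gi/o, which lowers cAMP and opens potassium channels, the Htr2 receptors couple to Gq, which activates phospholipase C, and Htr4, Htr6 and Htr7 couple to Gs, which raises cAMP. In the striatum these receptors sit on spiny projection neurons, on interneurons and on incoming axons; only transcripts made in cell bodies within the dissected tissue would be counted here.

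Counts assigned to genes ranged from 3536802 to 5150280 per library (median 4392301.5), and 1 CPM, after trimmed mean (TMM) scaling, stood for 3.34 to 5.81 reads. The regional labels were checked with marker lists: the summed level of 15 spiny neuron genes was 10610 to 14932 CPM in dorsal striatum, 2710 to 5795 in ventral striatum and at most 473 elsewhere, that of 10 cortical excitatory neuron genes was 2394 to 2576 CPM in motor cortex and at most 540 elsewhere, and that of 13 hypothalamic genes was 232 to 396 CPM in hypothalamus and at most 25.7 elsewhere. The hypothalamus libraries also held 459 to 1061 CPM of 7 thalamic genes, which summed to at most 238 CPM elsewhere. The part of thalamic tissue in the hypothalamus values was not tested. Hdc itself, the targeted gene, averaged 0.449 CPM in WT, 5.53 in heterozygous and 8.66 in Hdc-KO dorsal striatum, 0.634, 5.35 and 12.2 CPM in ventral striatum, and 0, 5.11 and 8.95 CPM in motor cortex. In hypothalamus, where Hdc neurons lie, it averaged 17.1 CPM in WT, 17.2 in heterozygous and 12.9 in Hdc-KO libraries. The counted Hdc transcript thus separated the genotypes outside the hypothalamus by being higher, not lower, in the libraries labelled Hdc-KO. Counts were summed over all exons, so transcripts of the disrupted gene outside a deleted part would be included. Exons were not counted apart, so whether this accounts for the Hdc levels was not tested. The level is thus no check of the knockout, and Hdc-KO below means the libraries labelled so. The following 3 libraries matter below because markers of other tissue were high in them. The 10 cortical genes summed to 540 CPM in Hdc-KO hypothalamus replicate 8 (other hypothalamus libraries 146 to 209) and to 475 CPM in Hdc-KO dorsal striatum replicate 7 (others 125 to 256). The 14 choroid plexus genes summed to 2989 CPM in Hdc-KO dorsal striatum replicate 8 (others 4.79 to 76.5). Smaller rises were not confined to Hdc-KO. The mean log2 CPM of the cortical genes was 3.32 in WT dorsal striatum replicate 2. It was 4.505 in Hdc-KO replicate 7 and 1.48 to 2.03 in the other dorsal striatum libraries. In heterozygous dorsal striatum replicate 4, 10 ependymal genes summed to 40.5 CPM (others 4.17 to 18.1). There 8 hippocampal genes summed to 892 CPM (others 410 to 551).

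In GRCm38, Htr1a lies at chr13:105443639-105448122 on the plus strand and has 1 exon. Htr1b (chr9:81628291-81633828, minus strand), Htr1d (chr4:136423524-136444398, plus strand) and Htr1f (chr16:64924729-65105854, minus strand) each have 1 coding exon as well. Htr2a lies at chr14:74640840-74709494 (plus strand, 3 coding exons), Htr2c at chrX:146962513-147197277 (plus strand, 4 coding exons), Htr5a at chr5:27842149-27855088 (plus strand, 2 coding exons), Htr6 at chr4:139061108-139075570 (minus strand, 3 coding exons) and Htr7 at chr19:35958734-36057507 (minus strand, 2 to 4 coding exons), while Htr4 has 6 coding exons on the plus strand. Reads were 50 bases long. In 9 of the 10 genes no 50-base stretch of an annotated transcript occurred in a transcript of another gene. Only exact matches were sought, so reads shared with copies that differ by some bases were not tested. Htr1b is the exception: 17.1% of its 4672 stretches (800) recurred elsewhere, 758 of them only in D430036J16Rik, an antisense transcript that overlaps 852 exonic bases of Htr1b. The library kit kept no strand and D430036J16Rik had no row in the count files, so reads from it could not be told apart from Htr1b reads. The introns of Htr2c hold Snora35 and 7 microRNA genes, which together gave 17 counts in the 28 libraries and have no exonic overlap with Htr2c.

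Promoter sequences are shown for Htr1b and Htr1d, which were high together in dorsal striatum, and for Htr1a and Htr2a, which were highest in motor cortex. Each runs from 250 bases before to 50 bases after the start that RefSeq gives (GRCm38.p6), 5′ to 3′ on the gene's own strand, and capitals mark matches on either strand to CCAAT or to the GC box GGGCGG. The second start that RefSeq lists for Htr1d is not shown.
Htr1b, chr9:81633783-81634082, minus strand: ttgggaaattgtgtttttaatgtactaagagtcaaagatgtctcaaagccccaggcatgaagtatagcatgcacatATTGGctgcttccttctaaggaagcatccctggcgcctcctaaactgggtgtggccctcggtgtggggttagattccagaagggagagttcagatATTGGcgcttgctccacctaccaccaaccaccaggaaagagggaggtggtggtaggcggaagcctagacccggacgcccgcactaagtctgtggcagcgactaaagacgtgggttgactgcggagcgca
Htr1d, chr4:136423274-136423573, plus strand: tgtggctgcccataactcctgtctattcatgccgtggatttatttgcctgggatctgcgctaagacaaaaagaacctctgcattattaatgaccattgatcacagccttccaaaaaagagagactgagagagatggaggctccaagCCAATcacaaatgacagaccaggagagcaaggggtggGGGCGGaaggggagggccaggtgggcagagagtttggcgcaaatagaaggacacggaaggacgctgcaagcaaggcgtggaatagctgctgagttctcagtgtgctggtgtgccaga
Htr1a, chr13:105443443-105443742, plus strand: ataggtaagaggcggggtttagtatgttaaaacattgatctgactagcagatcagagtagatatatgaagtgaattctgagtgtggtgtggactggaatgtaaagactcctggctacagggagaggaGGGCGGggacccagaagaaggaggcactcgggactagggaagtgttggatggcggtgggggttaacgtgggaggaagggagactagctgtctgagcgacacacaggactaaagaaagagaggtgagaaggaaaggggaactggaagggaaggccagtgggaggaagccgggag
Htr2a, chr14:74640624-74640923, plus strand: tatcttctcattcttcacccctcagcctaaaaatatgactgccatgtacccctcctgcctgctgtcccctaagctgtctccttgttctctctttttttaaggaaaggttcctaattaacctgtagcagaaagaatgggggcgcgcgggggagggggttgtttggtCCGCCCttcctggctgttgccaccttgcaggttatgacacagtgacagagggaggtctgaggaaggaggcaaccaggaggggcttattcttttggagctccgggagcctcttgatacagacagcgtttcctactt
None of the 4 held TATAAA, the cyclic AMP response element TGACGTCA or the E-box CACGTG, which were found on either strand in 13.6%, 1.79% and 7.15% of 32851 RefSeq promoters of the same length. CCAAT, found in 37.4% of all promoters, occurred 2 times in Htr1b and 1 time in Htr1d and not in the printed Htr1a and Htr2a windows. GGGCGG, found in 35.7% of all promoters, occurred 1 time each in Htr1d, Htr1a and Htr2a and not in Htr1b. The second Htr1d window held CCAAT 0 times and GGGCGG 4 times. These are letter matches in fixed windows and no binding was measured.

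**Figure D1:**
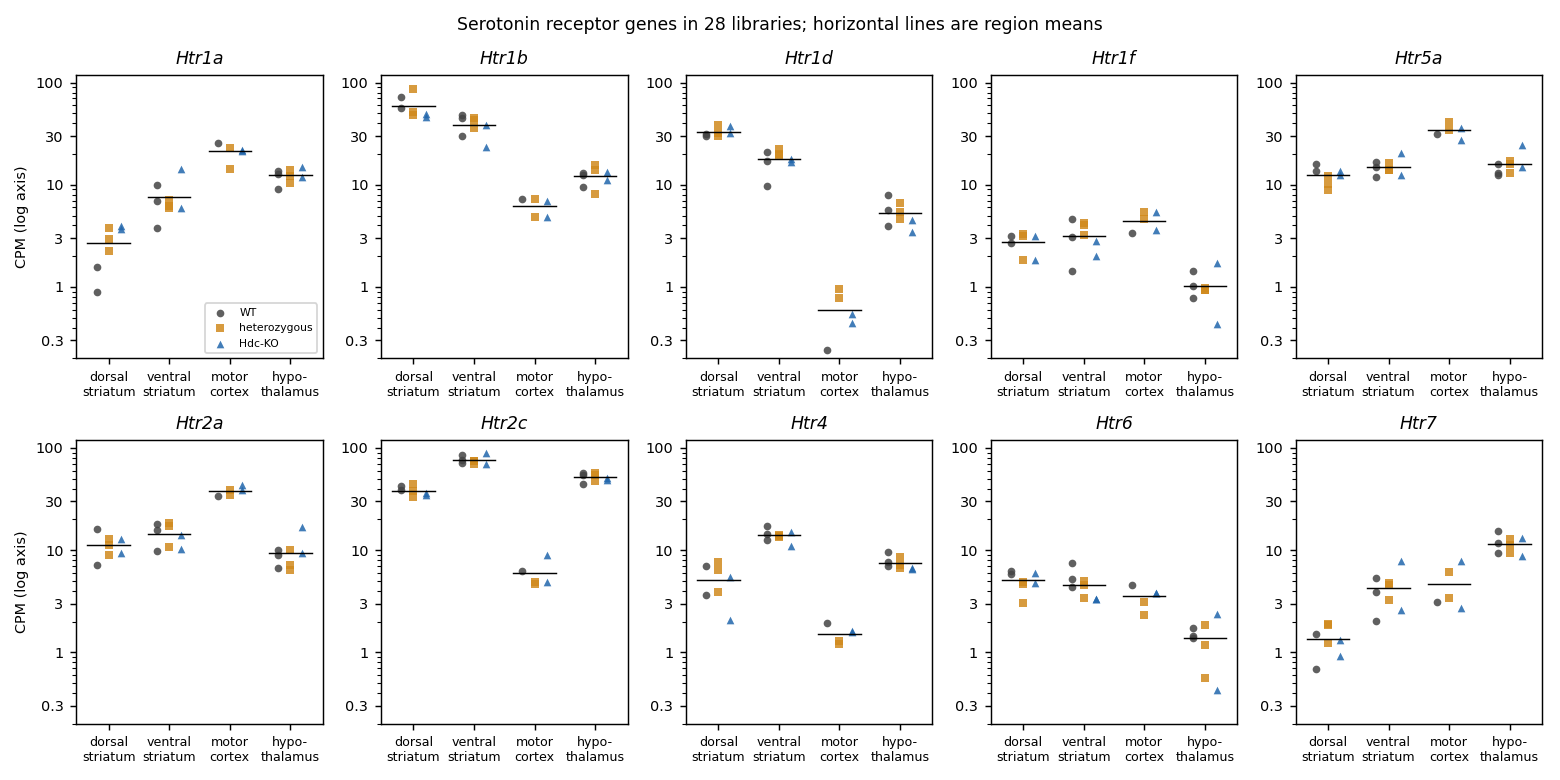
CPM of each of the 10 genes (log axis) in each library, by region and genotype; points are libraries and horizontal lines region means. Htr1b and Htr1d were highest in dorsal striatum, Htr2c and Htr4 in ventral striatum, Htr1a, Htr2a and Htr5a in motor cortex and Htr7 in hypothalamus, while genotypes lay within or near the spread of each region.

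The leading receptors differed in part between regions, while Htr1b, Htr1d and Htr2c held the largest shares in both striatal regions. On a scale of RPKM, which is CPM divided by exon length in kilobases and allows levels of different genes to be compared, Htr1b and Htr1d led in dorsal striatum with 12.4 ± 3.2 and 10.3 ± 1.1 RPKM (SD, n = 7 libraries), and made up 33.8% and 28.5% of the summed RPKM of the 10 genes. In ventral striatum Htr2c (8.18 ± 0.77 RPKM) and Htr1b (8.18 ± 1.8 RPKM, n = 8) were level, with 22.8% and 22.4% of the sum. Htr1d came next there with 15.4%, as did Htr2c in dorsal striatum with 11.3%. In motor cortex Htr2a (6.73 ± 0.66 RPKM), Htr5a (6.35 ± 0.95) and Htr1a (4.75 ± 0.96, n = 5) made up 27.1%, 25.6% and 19.1%. In hypothalamus Htr2c led with 5.53 ± 0.48 RPKM (24.1%), followed by Htr7 with 3.38 ± 0.67 RPKM (14.7%, n = 8). The summed RPKM was 36.4 ± 3.5 in dorsal striatum, 36.3 ± 3.6 in ventral striatum, 24.9 ± 0.90 in motor cortex and 23.0 ± 2.3 in hypothalamus. The Gi/o-coupled receptors made up 73.3% of the sum in dorsal striatum, 57.7% in motor cortex, 53.6% in ventral striatum and 44.8% in hypothalamus, where the Gs-coupled receptors reached 23.8% against 9.91% in dorsal striatum. These values divide by all annotated exons of a gene merged. For Htr2c that length (9328 bases) exceeds that of its longest transcript (4883 bases), and with longest transcripts Htr2c would make up 19.0% of the sum in dorsal striatum, 35.3% in ventral striatum, 4.73% in motor cortex and 37.0% in hypothalamus. Htr1b would then make up 18.2% in ventral striatum, so it and Htr2c would not be level there. In hypothalamus the Gq-coupled receptors would make up 42.9% and the Gi/o-coupled 36.7%. The Gi/o-coupled would stay the largest class in the other regions, narrowly in ventral striatum (45.0% against 40.9% for Gq).

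**Figure D2:**
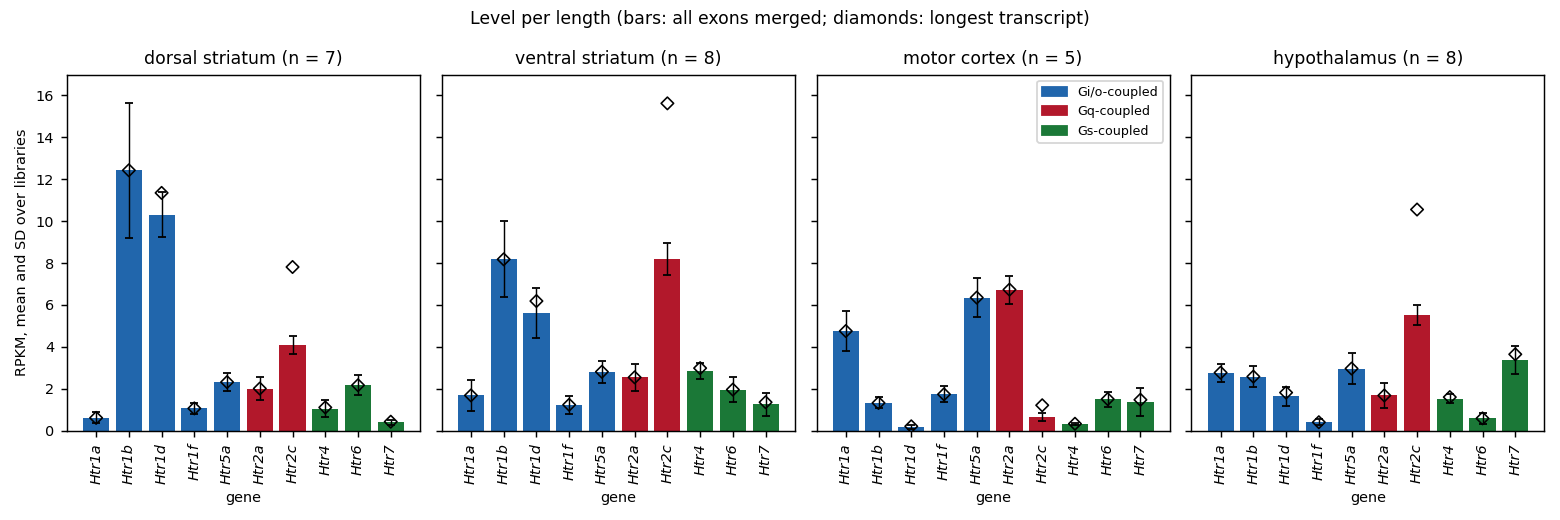
Mean RPKM with SD over the libraries of each region, on a common linear axis from 0, coloured by the G protein each receptor couples to; open diamonds give the mean when the longest transcript is used as length. Htr1b (12.4 RPKM) and Htr1d (10.3) stand out in dorsal striatum, Htr2a (6.73) and Htr5a (6.35) in motor cortex and Htr2c (5.53) in hypothalamus; the diamond of Htr2c lies well above its bar in every region.

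Differences between regions were tested on counts with edgeR's likelihood ratio test over all 14979 genes, taking the mean of the 3 genotypes in each region, with p-values adjusted by the Benjamini-Hochberg method and a threshold of 0.05. Between dorsal and ventral striatum 6 of the 10 genes passed (2 higher and 4 lower in dorsal striatum), where 29.0% of all genes did (14.6% higher and 14.4% lower). Dorsal striatum against motor cortex gave 4 higher and 5 lower (all genes 43.4%, with 21.4% higher and 22.0% lower), and dorsal striatum against hypothalamus 4 higher and 5 lower (56.1%, with 25.5% and 30.7%). Ventral striatum against motor cortex gave 4 higher and 3 lower (43.6%, with 22.2% and 21.5%), ventral striatum against hypothalamus 7 higher and 2 lower (43.6%, with 19.7% and 23.9%), and motor cortex against hypothalamus 5 higher and 5 lower (48.2%, with 22.9% and 25.4%). In the same order of comparisons, the libraries of the paired regions did not overlap for 9.65%, 26.4%, 27.9%, 24.6%, 16.0% and 30.3% of all genes. Bulk tissue was measured, so fewer cells of a type and less RNA per cell cannot be told apart in any of these differences.

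Htr1b, a Gi/o-coupled receptor best known from axon terminals, was counted at 46.1 to 86.7 CPM in dorsal striatum (median 51.3), 23.3 to 48.4 in ventral striatum (median 40.7), 8.18 to 15.6 in hypothalamus (median 12.8) and 7.20, 7.24, 4.88, 6.94 and 4.86 in the 5 motor cortex libraries. The order was dorsal striatum, ventral striatum, hypothalamus, motor cortex, and all 6 pairs of regions differed in edgeR's test, although the ranges of the striatal regions overlapped. Dorsal exceeded ventral striatum by 0.62 (log2, SE 0.15, adjusted p = 0.000137), and motor cortex was below hypothalamus by a log2 difference of -0.93 (SE 0.21, adjusted p = 3.99e-05). The lowest ventral striatum values of Htr1b, 23.3 CPM in Hdc-KO replicate 8 and 30.01 CPM in WT replicate 3, came from the libraries with the lowest sums of spiny neuron genes (2710 and 3057 CPM, others 4433 to 5795).

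Htr1d, a close relative of Htr1b, showed the largest regional difference of the 10 genes. The libraries held 29.7 to 38.1 CPM in dorsal striatum (median 32.1), 9.75 to 22.4 in ventral striatum (median 18.7) and 3.47 to 7.88 in hypothalamus (median 5.02), while the 5 motor cortex libraries held 1, 4, 3, 2 and 2 reads, or 0.240 to 0.966 CPM. No 2 regions overlapped. The log2 difference was 6.04 between dorsal striatum and motor cortex (95% interval 4.90 to 7.17, adjusted p = 5.43e-102 by edgeR), 0.88 between dorsal and ventral striatum (SE 0.12, adjusted p = 2.00e-11) and -3.35 between motor cortex and hypothalamus (SE 0.59, adjusted p = 1.93e-18); the motor cortex counts of 1 to 4 limit how closely the first and the third are known.

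Htr1a, the Gi/o-coupled receptor that acts as an autoreceptor on serotonin neurons and also sits on the cell bodies of many target neurons, had nearly the opposite order. Its level was 25.7, 23.2, 14.1, 21.9 and 21.6 CPM in motor cortex, 9.12 to 14.9 in hypothalamus (median 12.5), 3.75 to 14.4 in ventral striatum (median 6.59) and 0.899 to 3.91 in dorsal striatum (median 2.94). All 6 pairs of regions differed: motor cortex exceeded hypothalamus by 0.81 (log2, SE 0.18, adjusted p = 2.96e-05), and dorsal striatum was below ventral striatum by a log2 difference of -1.64 (SE 0.25, adjusted p = 7.31e-11) and below motor cortex by one of -3.15 (SE 0.26, adjusted p = 9.98e-41, edgeR). The ventral striatum value of 14.4 CPM, from Hdc-KO replicate 8, lay in the range of hypothalamus.

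Htr5a, a Gi/o-coupled receptor of neurons, was highest in motor cortex with 31.5, 34.3, 41.1, 36.3 and 27.5 CPM. The other regions had 12.6 to 24.7 CPM in hypothalamus (median 15.4), 11.8 to 20.5 in ventral striatum (median 14.5) and 8.96 to 15.9 in dorsal striatum (median 12.6). Motor cortex was above every other region, by 1.05 (log2, SE 0.13) over hypothalamus to 1.41 over dorsal striatum. Below it the order was loose: the striatal regions did not pass the test against each other (log2 difference -0.27, 95% interval -0.54 to 0.00, adjusted p = 0.136), nor did ventral striatum and hypothalamus (-0.09, adjusted p = 0.604, edgeR). Dorsal striatum was called below hypothalamus (-0.36, SE 0.14, adjusted p = 0.0152), but the difference was -0.23 and the adjusted p 0.162 without Hdc-KO hypothalamus replicate 8, 0.0599 without WT dorsal striatum replicate 2 and 0.0521 without WT hypothalamus replicate 3.

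Htr1f, also Gi/o-coupled, was the least counted of this group, with 2 to 21 reads per library. It was counted at 3.36, 4.59, 5.40, 3.58 and 5.40 CPM in motor cortex, 1.44 to 4.57 in ventral striatum, 1.83 to 3.27 in dorsal striatum and 0.430 to 1.73 in hypothalamus. Hypothalamus was below the 3 other regions, by a log2 difference of 1.36 (SE 0.30) from dorsal striatum, 1.53 (SE 0.29) from ventral striatum and 1.99 (SE 0.30) from motor cortex, with adjusted p of 7.28e-06, 1.54e-07 and 1.32e-10 by edgeR. Dorsal striatum against motor cortex passed narrowly (-0.63, SE 0.26, adjusted p = 0.0393) and did not pass when any 1 of 6 libraries was left out (heterozygous replicate 4, Hdc-KO replicate 7 and either WT replicate of dorsal striatum, heterozygous replicate 6 and Hdc-KO replicate 8 of motor cortex; adjusted p up to 0.126), nor in edgeR's quasi-likelihood test (0.0597) or DESeq2 (0.142).

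The Gq-coupled receptors were high in different places. Htr2a, the receptor through which classical hallucinogens act, was counted at 33.6, 38.9, 34.7, 38.5 and 42.9 CPM in motor cortex, above every library of the other regions, where it was counted at 9.75 to 18.3 CPM in ventral striatum (median 14.9), 7.19 to 16.1 in dorsal striatum (median 11.2) and 6.32 to 16.8 in hypothalamus (median 9.13). Motor cortex exceeded ventral striatum by a log2 difference of 1.40 (SE 0.18, adjusted p = 1.20e-14), dorsal striatum by 1.69 (SE 0.19, adjusted p = 3.22e-19) and hypothalamus by 1.95 (SE 0.18, adjusted p = 2.47e-27, edgeR). Dorsal striatum did not pass against ventral striatum (-0.29, adjusted p = 0.210) or hypothalamus (0.25, adjusted p = 0.215). Ventral striatum passed against hypothalamus (0.55, SE 0.17, adjusted p = 0.00338), but not when libraries were scaled by their size alone (0.34, adjusted p = 0.0742) or when WT libraries were left out (0.44, adjusted p = 0.0535).

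Htr2c, which acts on feeding and dopamine circuits and is known as an abundant transcript of the choroid plexus, was lowest in motor cortex and highest in ventral striatum. It was counted at 69.8 to 89.5 CPM in ventral striatum (median 74.4), 44.6 to 56.5 in hypothalamus (median 52.2), 33.2 to 44.2 in dorsal striatum (median 37.5) and 6.24, 4.83, 4.63, 4.92 and 8.91 in motor cortex. No 2 regions overlapped and all 6 pairs differed, from -0.42 (log2, SE 0.09, adjusted p = 4.27e-06) between dorsal striatum and hypothalamus to 3.71 (SE 0.16, adjusted p = 1.09e-157, edgeR) between ventral striatum and motor cortex. Its replicates were also the tightest of the 10 genes, with a biological coefficient of variation of 8.94% against up to 23.3% for Htr7. In dorsal striatum the library with 2989 CPM of choroid plexus genes held 138 Htr2c reads (36.2 CPM), within the range of the other 6 libraries, which held 122 to 217 reads (33.2 to 44.2 CPM).

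Among the Gs-coupled receptors, Htr4 followed Htr2c. It was counted at 10.9 to 17.2 CPM in ventral striatum (median 13.8), 6.498 to 9.48 in hypothalamus (median 7.06), 2.07 to 7.62 in dorsal striatum (median 5.51) and 1.92, 1.21, 1.29, 1.57 and 1.62 in motor cortex. All 6 pairs of regions differed by edgeR, among them ventral striatum over motor cortex (3.12, SE 0.29, adjusted p = 1.23e-38) and ventral over dorsal striatum (1.49, SE 0.17, adjusted p = 4.02e-18). Dorsal striatum against hypothalamus (-0.57, SE 0.18, adjusted p = 0.00253) did not pass without Hdc-KO dorsal striatum replicate 7, which held the lowest value of 2.07 CPM (-0.38, adjusted p = 0.0645) and is the library with the high sum of cortical genes. The part of that tissue in the difference was not tested.

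Htr6, which among the 10 genes is the one best known as a striatal receptor, was counted at 3.06 to 6.29 CPM in dorsal striatum (median 4.90), 3.29 to 7.54 in ventral striatum (median 4.45), 4.56, 3.14, 2.31, 3.80 and 3.78 in motor cortex and 0.430 to 2.38 in hypothalamus (median 1.40). The first 3 did not pass against one another, with log2 differences of 0.24 (dorsal over ventral striatum, adjusted p = 0.391), 0.50 (dorsal striatum over motor cortex, 0.0620) and 0.26 (ventral striatum over motor cortex, 0.382). Hypothalamus was below all 3, by 1.89 (SE 0.25) from dorsal striatum, 1.65 (SE 0.25) from ventral striatum and 1.39 (SE 0.28, adjusted p = 1.91e-06, edgeR) from motor cortex.

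Htr7, a Gs-coupled receptor studied in hypothalamus and thalamus, was highest in hypothalamus, at 8.80 to 15.3 CPM (median 11.6). The 7 thalamic genes were highest in the same libraries (459 to 1061 CPM), and the part of thalamic tissue in the Htr7 level was not tested. It was counted at 2.02 to 7.84 CPM in ventral striatum (median 4.20), 3.12, 3.38, 6.17, 7.83 and 2.70 in motor cortex and 0.680 to 1.90 in dorsal striatum (median 1.31, 3 to 9 reads). Hypothalamus exceeded dorsal striatum by a log2 difference of 3.17 (SE 0.32, adjusted p = 2.91e-28) and ventral striatum and motor cortex by 1.40 each (adjusted p = 1.83e-09 and 9.69e-07, edgeR). Ventral striatum and motor cortex gave a log2 difference of 0.00 (SE 0.29, 95% interval -0.57 to 0.57).

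Across the 28 libraries the closest pair was Htr1b and Htr1d (Pearson r of log2 CPM 0.94), then Htr2c and Htr4 (0.91); Htr1a and Htr1b ran opposite (-0.86). These are descriptions of 28 libraries that fall into 4 regions, and after the region means were removed the same pairs had r of 0.25, 0.21 and -0.16. Among all genes tested, the 3 closest to Htr1b were Penk (0.98), the enkephalin gene of indirect pathway spiny neurons, Alcam (0.97) and Sesn3 (0.97), with r of 0.76, 0.70 and 0.74 within regions. Those of Htr1d were Necab2 (0.98), Tacr1 (0.98) and Drd2 (0.97), the dopamine receptor of the same spiny neurons, with r of 0.33, 0.55 and -0.34 within regions. Those of Htr1a were Lrrc55 (0.95), Srrm4 (0.95) and Vsnl1 (0.94), those of Htr2a Mpped1, Sstr4 and Rapgefl1 (0.92 each), and those of Htr5a Dmd (0.94), Mapk10 (0.92) and Gpr22 (0.92). Htr2c and Htr4 shared Arhgap6 among their 3 closest (0.96 and 0.92), beside Abat and Cacna2d2 (0.96 each) for Htr2c and P2ry1 (0.94) and Fchsd2 (0.92) for Htr4. The closest to Htr7 were Psd2, Resp18 and Kcnip1 (0.94 each), to Htr6 Muc3a, Stxbp2 and Dbn1 (0.87 each) and to Htr1f Plxna2 (0.84), Chst2 (0.82) and Prickle2 (0.82). Within regions the r of these neighbours was 0.60 to 0.66 for Htr1a, 0.60 to 0.68 for Htr2a, 0.52 to 0.74 for Htr5a and 0.50 to 0.72 for Htr7. It was lower for Htr4 (-0.0020 to 0.48), Htr6 (0.26 to 0.41), Htr2c (-0.03 to 0.23) and Htr1f (0.07 to 0.09).

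The other genes of the serotonin system ranged from a few reads in all to more reads than most of the receptors. Of 4 other receptor genes, Htr2b and Htr3a passed the filter with mean levels of 0.642 to 2.97 CPM, and Htr3b and Htr5b held 0 to 4 reads in every library and did not. Htr3a, the subunit of the ion channel receptor and a marker of cortical interneurons, was higher in motor cortex than in dorsal striatum (dorsal striatum minus motor cortex -1.40 on the log2 scale, adjusted p = 0.00107, edgeR) and than in hypothalamus (0.98, adjusted p = 0.00872). Genes that mark serotonin neurons were near the floor: Slc6a4, the serotonin transporter, had 0 to 4 reads in every library, as had Fev, and Tph2, which makes serotonin in neurons, had 0 to 11. Of the 8 genes for synthesis, transport and breakdown, 5 passed the filter. In dorsal striatum against hypothalamus 1 was higher (Tph2, with 1.54 against 0.423 CPM) and 4 lower: Slc18a2, the vesicular monoamine transporter (-2.50, adjusted p = 8.39e-55), Ddc, which makes dopamine as well as serotonin (-2.66, adjusted p = 7.49e-32), and the monoamine oxidases Maob (-1.02, adjusted p = 1.03e-28) and Maoa (-0.93, adjusted p = 1.47e-19). The same 4 were lower in ventral striatum and in motor cortex than in hypothalamus. Of all genes, 30.7% were lower in dorsal striatum, 23.9% in ventral striatum and 25.4% in motor cortex than in hypothalamus.

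The signalling partners of the receptors differed between regions too. Beside the counts below, 14.6% of all genes were called higher and 14.4% lower in dorsal than in ventral striatum. In dorsal striatum against motor cortex 21.4% were higher and 22.0% lower, and in motor cortex against hypothalamus 22.9% and 25.4%. Of 11 Gs effector genes 7 were higher and 1 lower in dorsal than in ventral striatum, with a median log2 difference of 0.52, where the 10 receptors had a median of -0.28. Ppp1r1b (DARPP-32), the protein that relays cAMP in spiny neurons, was 997 CPM in dorsal and 348 CPM in ventral striatum (1.51, SE 0.12, adjusted p = 2.27e-31), and the Gi/o regulator Rgs4 was 773 against 166 CPM (2.21, adjusted p = 2.66e-52). Adenylyl cyclase Adcy5 exceeded motor cortex in dorsal striatum by 3.62 (log2, SE 0.12, adjusted p = 4.07e-125). Ppp1r1b and Adcy5 are also among the 15 spiny neuron genes used to check the regions, so the Gs list is not separate from those. Of 10 Gi/o effectors 3 were higher and 5 lower in dorsal striatum than in motor cortex, the lower ones led by the potassium channels Kcnj3 (14.5 against 154 CPM, -3.44) and Kcnj6 (3.85 against 44.8 CPM, -3.61, adjusted p = 3.64e-85). Of 8 Gq effectors tested 6 were higher and 2 lower in motor cortex than in hypothalamus (median 0.94), among them Prkcb (2.33) and Plcb1 (2.00, adjusted p = 7.14e-65), while the Gq-coupled receptors themselves went both ways there. Of 12 receptor interacting proteins 2 were higher and 4 lower in dorsal than in ventral striatum.

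Genotype was compared within each region. In none of the comparisons did any of the 10 genes pass: Hdc-KO against WT called 0 of 10 in dorsal striatum (0.387% of all genes were called), ventral striatum (0.0801%), motor cortex (0.0334%) and hypothalamus (0.167%). Heterozygous against WT called 0 of 10 in the same regions (0.0868%, 0.0534%, 0.0134% and 0.0935%), and Hdc-KO against heterozygous 0 of 10 (0.454%, 0.0467%, 0.00668% and 0.234%). The same was found for the mean Hdc-KO against WT difference of the 3 regions with replicated WT libraries (0.527%) and for the 3 comparisons of that difference between regions (0.00668% between dorsal and ventral striatum, 0.154% between dorsal striatum and hypothalamus and 0.100% between ventral striatum and hypothalamus). At an unadjusted p under 0.05, Hdc-KO against WT held 1 of the 10 genes in dorsal striatum, 1 in ventral striatum, 0 in motor cortex and 2 in hypothalamus, where 7.94%, 5.39%, 4.33% and 6.03% of all genes did; heterozygous against WT held 2, 0, 0 and 0 (all genes 7.94%, 4.50%, 3.72% and 5.62%), and Hdc-KO against heterozygous 0, 1, 0 and 1 (7.27%, 3.44%, 4.18% and 5.57%). The mean of 3 regions held 2 of the 10 (10.4% of all genes), and the comparisons of the Hdc-KO effect between regions held 0, 2 and 1 (4.35%, 6.88% and 4.53%). The quasi-likelihood test of edgeR and DESeq2 also called 0 of 10 in each. The replicates may be technical in part, since the labels do not say that they are separate animals. The same WT libraries served both comparisons within a region.

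**Figure D3:**
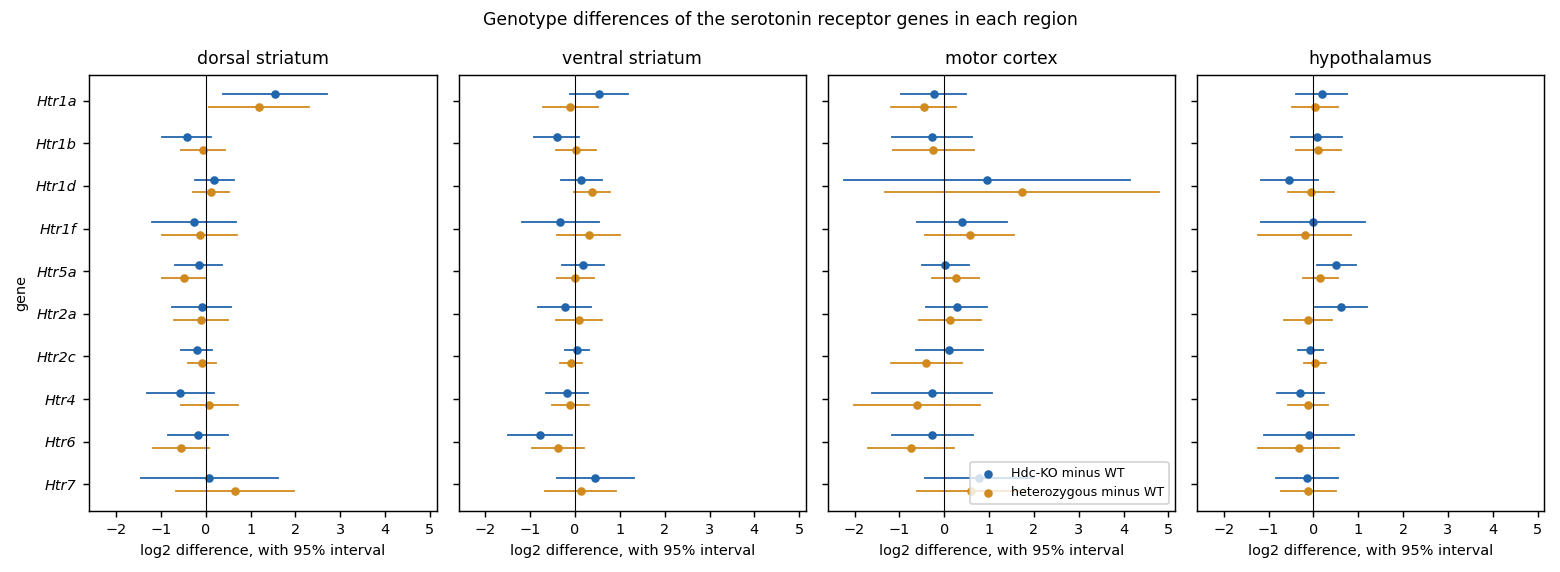
Log2 differences of each gene from WT in the 4 regions, with 95% intervals from edgeR, for Hdc-KO and heterozygous libraries; the vertical line is no difference. The Hdc-KO intervals that leave out 0 are those of Htr1a in dorsal striatum (1.54), Htr6 in ventral striatum (-0.78) and Htr2a (0.61) and Htr5a (0.51) in hypothalamus, none past the adjusted threshold, and those of Htr1d in motor cortex, which rest on 1 to 4 reads per library, are the widest.

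Htr1a came closest. In dorsal striatum the WT libraries held 3 and 7 Htr1a reads (0.899 and 1.59 CPM), the heterozygous libraries 11, 12 and 14 (2.24, 2.94 and 3.81 CPM) and the Hdc-KO libraries 17 and 14 (3.91 and 3.67 CPM). WT did not overlap with either other genotype there, as was so for 37.1% of all genes for Hdc-KO and 21.5% for heterozygous libraries. The log2 difference was 1.54 for Hdc-KO (SE 0.59, 95% interval 0.39 to 2.69, unadjusted p = 0.00511, adjusted p = 0.285) and 1.18 for heterozygous libraries (SE 0.57, adjusted p = 0.547, edgeR), neither past the threshold over all genes. Both Hdc-KO libraries had high marker sums: replicate 7 held 475 CPM of cortical excitatory neuron genes, and replicate 8 held 2989 CPM of choroid plexus genes. WT replicates 1 and 2 held 133 and 256 CPM of the cortical genes, and 4.79 and 16.5 CPM of the choroid plexus genes. The 15 oligodendrocyte genes summed to 4673 and 5961 CPM in Hdc-KO, 3629 and 3123 in WT and 4465 to 4742 in heterozygous libraries. The Hdc-KO difference of Htr1a was 1.496 without replicate 7 and 1.59 without replicate 8 (adjusted p = 0.407 and 0.690). It was 1.52 with the cortical list as a covariate and 1.29 with the choroid plexus list (adjusted p = 0.325 and 0.897), and the part of oligodendrocyte content was not tested. Scaling by library size alone gave 1.81 and an adjusted p of 0.0414 for Hdc-KO, with the median of all genes shifted by 0.28. In ventral striatum Htr1a was 3.75, 9.96 and 6.92 CPM in WT, 6.25, 7.07 and 5.98 in heterozygous and 5.90 and 14.4 in Hdc-KO libraries, and the genotypes overlapped. In hypothalamus it was 13.7, 9.12 and 12.9 CPM in WT and 14.9 and 12.03 in Hdc-KO. Over these 3 regions Hdc-KO averaged 0.76 above WT (log2, SE 0.24, unadjusted p = 0.00128, adjusted p = 0.112). That mean takes 6 Hdc-KO libraries, all of replicate numbers 7 and 8, as independent, so if the numbers mark animals its SE and p may be too small. It also depended on Hdc-KO ventral striatum: without replicate 7 it was 0.93 (adjusted p = 0.00642, past the threshold), and without replicate 8 it was 0.50 (adjusted p = 0.576). Replicate 8 held the highest Htr1a and Htr7 (7.84 CPM) of ventral striatum, the lowest Htr1b (23.3 CPM), Htr2c (69.8 CPM) and Htr4 (10.9 CPM), the lowest sum of spiny neuron genes (2710 CPM) and the highest of 7 thalamic genes (238 CPM, others 142 to 190); the part of its tissue make-up in these values was not tested. The Hdc-KO over WT difference of Htr1a was larger in dorsal striatum than in hypothalamus by 1.36 (log2, SE 0.65, adjusted p = 0.682).

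In hypothalamus Htr2a was 10.1, 8.95 and 6.62 CPM in WT, 9.996, 6.32 and 7.20 in heterozygous and 9.31 and 16.8 in Hdc-KO libraries, and Htr5a was 13.2, 12.6 and 15.9, then 16.1, 16.9 and 13.05, then 14.9 and 24.7 CPM. Both high values came from Hdc-KO replicate 8, the library with 540 CPM of cortical excitatory neuron genes, and both genes were highest in motor cortex. Hdc-KO exceeded WT by 0.61 for Htr2a (log2, SE 0.30, adjusted p = 0.793) and 0.51 for Htr5a (SE 0.22, adjusted p = 0.665, edgeR). Without that library the differences were 0.13 and 0.11, and without Hdc-KO replicate 7 they were 0.93 and 0.79 (adjusted p = 0.241 and 0.0982). With the cortical list as a covariate they were 0.29 and 0.35 (adjusted p = 0.999 for both). Within hypothalamus the mean log2 CPM of that list was 4.86 in Hdc-KO replicate 8 and 2.55 to 2.73 in the other libraries. Htr1a and Htr1f, which also had their highest mean in motor cortex, were 12.03 and 0.430 CPM in Hdc-KO hypothalamus replicate 8. For Htr1f that was the lowest hypothalamus value. The part of cortical tissue in these values was not tested. Hdc-KO dorsal striatum replicate 7, where the cortical genes summed to 475 CPM, held 12.9 CPM of Htr2a and 13.6 CPM of Htr5a, both within the range of the other dorsal striatum libraries. The highest values of that range were 16.1 CPM of Htr2a in WT replicate 2 (256 CPM of the cortical genes) and 15.9 CPM of Htr5a in WT replicate 1 (133 CPM).

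**Figure D4:**
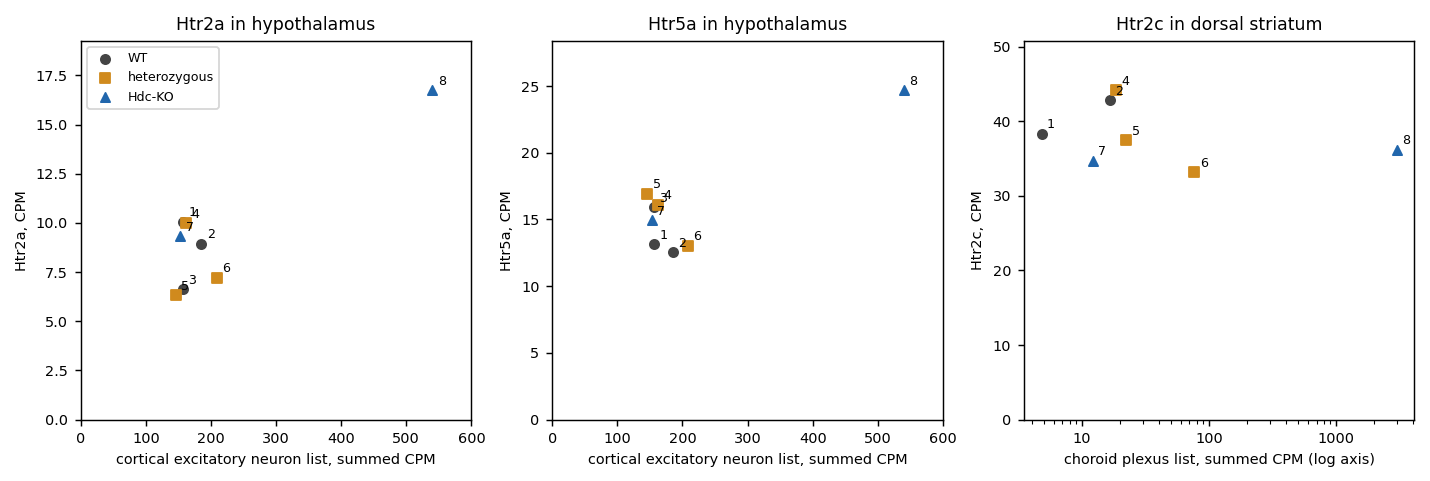
Left and middle, Htr2a and Htr5a CPM in the 8 hypothalamus libraries against the summed CPM of 10 cortical excitatory neuron genes; right, Htr2c CPM in the 7 dorsal striatum libraries against the summed CPM of 14 choroid plexus genes (log axis). Numbers are replicates. Hdc-KO hypothalamus replicate 8 (540 CPM) is highest for both receptors, whereas Htr2c in Hdc-KO dorsal striatum replicate 8 (2989 CPM) lies within the range of the rest.

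The remaining genes gave small or poorly known differences. Htr6 in ventral striatum was 5.19, 7.54 and 4.36 CPM in WT, 4.55, 3.40 and 5.02 in heterozygous and 3.31 and 3.29 in Hdc-KO libraries; the Hdc-KO libraries lay below all WT libraries (17.2% of all genes had no overlap there), with a log2 difference of -0.78 (SE 0.36, adjusted p = 0.846, edgeR). In the other regions Htr6 gave -0.17 (SE 0.34) in dorsal striatum and -0.10 (SE 0.51) in hypothalamus. Htr4 averaged -0.34 over the 3 regions (SE 0.18, adjusted p = 0.478), a value that leaving out 1 dorsal striatum library moved to -0.14 (WT replicate 2), -0.15 (Hdc-KO replicate 7) or -0.62 (Hdc-KO replicate 8), and the choroid plexus covariate to -0.65 (adjusted p = 0.200). Htr4 had Hdc-KO values of 6.498 and 6.66 CPM in hypothalamus below the WT values of 9.48, 7.05 and 7.70 (no overlap for 21.3% of all genes). Htr5a in heterozygous dorsal striatum was 8.96, 10.3 and 12.2 CPM against 15.9 and 13.6 in WT (-0.49, SE 0.25, adjusted p = 0.618). Htr1b gave -0.43 (95% interval -0.97 to 0.11) and -0.41 (-0.92 to 0.10) in dorsal and ventral striatum for Hdc-KO. In the 3 regions with replicated WT libraries the intervals were narrowest for Htr2c, whose Hdc-KO difference was -0.20 (-0.54 to 0.14) in dorsal striatum, 0.04 (-0.23 to 0.32) in ventral striatum and -0.07 (-0.35 to 0.21) in hypothalamus, and widest for the genes of few reads, such as Htr7 in dorsal striatum (0.08, -1.44 to 1.60). Htr1d gave 0.19 (SE 0.22) in dorsal striatum, 0.14 (SE 0.23) in ventral striatum and -0.54 (SE 0.33) in hypothalamus. Htr1f gave -0.27 (SE 0.48), -0.32 (SE 0.44) and -0.01 (SE 0.59) in the same regions. Of the genes of the serotonin pathway lists, 1 passed in 1 genotype comparison: Kcnj6, in Hdc-KO against heterozygous dorsal striatum (log2 1.43, SE 0.40, adjusted p = 0.0479, edgeR). Of all genes, 0.454% were called in that comparison, and the lists were searched in every genotype comparison. Kcnj6 had 5.63 against 2.13 CPM. The Hdc-KO replicate 7 with the high sum of cortical genes held most of the Hdc-KO reads, and the genotypes overlapped.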

How the data were processed

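Per the labels and the study's methods, cDNA was amplified from 5 ng of total RNA with the Ovation RNA-Seq V2 kit, which keeps no strand, and single-end reads of 50 bases were trimmed (Trimmomatic 0.32), cleared of rRNA (Bowtie2 2.2.3), aligned to GRCm38 (STAR 2.3.1z8, SAMtools 0.1.19) and counted over exons (HTSeq 0.6.1p1; its strand setting was not given in the sources used here). The authors deposited raw counts per gene and library; rows that name no gene were left out of library sizes. Amplification from little RNA adds spread to genes of few reads, and counts are not independent molecules.

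Counts were fitted with edgeR 4.0.16 (R 4.3.3) in 1 model with a mean for each of 12 genotype-by-region groups, TMM scaling and a likelihood ratio test, after a filter of more than 1 CPM in at least 2 libraries. Benjamini-Hochberg adjustment ran over all 14979 genes. CPM and RPKM used TMM-scaled library sizes, and RPKM used exon lengths of GENCODE M21 (GRCm38), as did gene names (28758 of 29878). The study names a different annotation, of Ensembl, so these lengths may include exons over which no reads were counted. How far this moves the RPKM values and shares was not tested. The script was tested on simulated data. Samples were grouped by the genotype and region labels; 21 pairs of replicates were compared and none was a duplicate. p-values measure the spread between these libraries only. The alternatives were the quasi-likelihood test, DESeq2 1.42.0, library-size or RLE scaling, no filter, marker list covariates, single-region fits, a replicate block and leaving out each library.

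All 10 genes were counted in every comparison and named for the regions and for Hdc-KO against WT, with Hdc, up to 4 pathway genes per comparison of smallest adjusted p (other pathway genes were named for their list after their values were seen) and the 3 genes closest to each receptor. The receptors and the gene lists were chosen with earlier results of these data known. Promoters came from RefSeq tables (GRCm38.p6), in which 9 of the 10 genes were found (not Htr4).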

Additional observations from a re-analysis of the deposited data

Results flagged for a closer look

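In 40 sets of libraries (10 genes in 4 regions), the highest or lowest library was compared with its neighbours by Dixon's criterion, and 4 sets held a library far from the others, where chance gives about 1 in 20. Htr1d in ventral striatum was 9.75 CPM in WT replicate 3, with the next value at 16.7 CPM. Htr6 in ventral striatum was 7.54 CPM in WT replicate 2, with the next value at 5.19 CPM. Htr2a and Htr5a in hypothalamus were 16.8 and 24.7 CPM in Hdc-KO replicate 8, with the next values at 10.1 and 16.9 CPM; both come from the library with 540 CPM of cortical excitatory neuron genes. With those genes as a covariate the Hdc-KO over WT differences went from 0.61 to 0.29 for Htr2a and from 0.51 to 0.35 for Htr5a (log2). The part of cortical tissue in these values was not tested.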

How the results depend on the processing

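The 6 counts of receptors called between regions stayed within 1.5 times under every alternative, leaving out each library included. The genotype counts of 0 stayed at 0 except for Htr1a: scaling by library size alone called 1 of 10 for Hdc-KO against WT in dorsal striatum and 1 of 10 for the mean of the 3 regions, and for that mean the count ranged from 0 to 1 over the fits that left out 1 library, being 1 without Hdc-KO ventral striatum replicate 7. Library-size scaling shifts the median log2 difference of all genes, by 0.28 for Hdc-KO against WT in dorsal striatum, 0.24 for the difference of that effect between dorsal and ventral striatum, and -0.41 for dorsal striatum against hypothalamus. Htr1a in Hdc-KO against heterozygous ventral striatum (0.65) ranged from -0.12 without Hdc-KO replicate 8 to 1.16 without Hdc-KO replicate 7. With the longest transcript as length, Htr2c made up 19.0% of the summed RPKM in dorsal striatum, 35.3% in ventral striatum, 4.73% in motor cortex and 37.0% in hypothalamus, because that length is shorter.

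With the number in the library names as a replicate block, the regional counts were 6, 8, 9, 7, 9 and 10 in the order given in the report; 1 call was lost, Htr1f in dorsal striatum against motor cortex (-0.48, adjusted p = 0.133). For deviations from group means, the mean r was 0.0070 over 34 pairs of same-numbered libraries of different regions. It was -0.0042 over 56 pairs of different numbers. These values cannot decide whether the numbers mark animals. Each Hdc-KO group held 2 libraries, whose deviations from their group mean mirror each other, so the kinds of pair are not independent. The main fit did not pair libraries by number, and what the numbers mark remains unknown. No paired analysis was possible for the genotype comparisons because the genotypes share no number. Few reads limit Htr1a in dorsal striatum (3 to 17 reads), Htr1d and Htr4 in motor cortex, and Htr1f, Htr6 and Htr7. Differences such as those between genotypes would have to be large there to be detected.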
